A study of Mus musculus with 5 samples.

Results

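The cytochrome P450 genes of the mouse were examined in hybrids of embryonic stem cells and hepatoma cells and in both parents. Members were the genes whose symbol consists of Cyp, a family number from 1 to 46, a letter and a number, so Cyp51 was left out. The array held 101 probes for 75 such genes, of 94 in the RefSeq gene table, among 18323 named genes in all. Of the 75 members, 55 (73.3%) gave a signal well above background on at least 1 of the 5 arrays, as did 84.3% of the named genes, and 20 members gave none on any array. ES was the embryonic stem cell line E14, and Hepa1-6 was a mouse hepatoma line. EHe was the hybrid line made by fusing E14 with Hepa1-6, and ES and EHe were kept in medium with 1000 units/ml leukemia inhibitory factor and 1% fetal bovine serum. EHeD7 and EHeD14 (day 7 and day 14) were EHe after 7 and 14 days of differentiation in vitro in medium with 15% fetal calf serum, and Hepa1-6 grew in medium with 10% fetal calf serum. Per the methods, the parental cells of the fusions carried fluorescent and drug resistance genes, which the hybrids therefore also carried, and the EHe label names 1 line without saying whether it was 1 clone.

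Cytochrome P450 enzymes are heme proteins of the endoplasmic reticulum or the mitochondria that insert an oxygen atom into lipophilic molecules, with electrons passed on by a reductase or a ferredoxin. In the adult liver, members of the first families oxidize drugs and other foreign compounds, while other families make or break down bile acids, steroid hormones, vitamin D, retinoic acid and fatty acid derivatives. Nuclear receptors and the aryl hydrocarbon receptor, Ahr, switch many of these genes on when a ligand is present, and the hepatic set is known for falling in cultured liver cells.

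Each value below is a log2 level, the log2 of the processed signal minus the log2 of the 75th percentile of the same array, so that 0 is the level of the 75th percentile. A signal that the scanner software did not call well above background is termed dim. Where 1 side of a comparison was dim, it was raised to the detection limit of its array, the lowest level of any probe called well above background, and the fold is given as a lower bound ("at least"). Each condition had 1 array, so there was no replicate error and no test could be made. Differences past 3-fold were counted instead, beside the percentage of all 15442 named genes above background on at least 1 array that passed the same limit. The only measured error was that between spots of the same probe on the same array, with a median SD of 0.09 to 0.14 on the log2 scale over 245 probes printed at least 5 times. It leaves out the spread between cultures. Each gene was read from 1 probe, and levels of different genes were not set against each other because probes differ in brightness. Members of the Cyp2 to Cyp4 families are close in sequence, and binding of a probe to a paralog was not tested.

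The 75th percentile signals lay between 1087.1 and 1456.3, and the detection limits between -6.16 at day 7 and -4.84 in EHe. No spot was saturated. Hepa1-6 lay on a slide of its own while the other 4 arrays shared 1 slide, so slide and cell line cannot be told apart. The labels were checked against marker genes. Of 7 hepatocyte markers, 5 were above background in Hepa1-6, among them Alb at 6.06 and Afp at 6.77, whereas Ttr and Apoa1 were dim there. Alb was dim on the other 4 arrays. The number detected did not by itself set Hepa1-6 apart. ES had 4 of the 7 markers, day 7 had 3, and EHe and day 14 had 2 each. The levels of Alb, Afp, Apob and Trf were past 3-fold higher in Hepa1-6 than in ES. Tat was not, with -2.96 in Hepa1-6 against -2.45 in ES. The 5 embryonic stem cell markers on the array were above background in ES, EHe, EHeD7 and EHeD14, and none was in Hepa1-6. The RNA came from whole cultures, so fewer cells of a type and less RNA per cell cannot be told apart.

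The promoters of 4 members that the results turn on are printed for orientation, as examples from the aryl hydrocarbon, retinoic acid and Cyp2b groups of genes that were above background on some arrays and dim on others. The sequences are from RefSeq (GRCm38.p6), cover the 120 bases before the annotated start and run 5′ to 3′ on the strand of the gene. Cyp1a1 lies at chr9:57697493-57697612 on the plus strand and Cyp1b1 at chr17:79715062-79715181 on the minus strand. In both, capitals mark GCGTG, the core that Ahr binds with its partner Arnt, which reads CACGC where it lies on the other strand. Cyp26a1 lies at chr19:37697688-37697807 on the plus strand. Capitals there mark the motif AGTTCA repeated after 5 bases, read on the other strand, of the kind that retinoic acid receptors bind. The repeat was looked for after this promoter had been read. Cyp2b13 lies at chr7:26061375-26061494 on the plus strand, and no searched motif fell in the stretch shown.
Cyp1a1: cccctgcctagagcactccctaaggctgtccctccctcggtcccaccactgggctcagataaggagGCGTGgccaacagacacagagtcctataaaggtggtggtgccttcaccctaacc
Cyp1b1: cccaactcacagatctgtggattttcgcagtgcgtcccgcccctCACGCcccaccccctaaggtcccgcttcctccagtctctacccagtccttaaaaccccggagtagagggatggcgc
Cyp26a1: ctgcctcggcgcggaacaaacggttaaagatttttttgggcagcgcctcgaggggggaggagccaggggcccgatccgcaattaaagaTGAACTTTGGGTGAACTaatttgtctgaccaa
Cyp2b13: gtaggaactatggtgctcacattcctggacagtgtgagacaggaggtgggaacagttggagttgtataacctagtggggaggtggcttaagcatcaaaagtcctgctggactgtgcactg

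The GCGTG core began 54 bases before the start in Cyp1a1 and 76 in Cyp1b1. Over windows of 300 bases on both strands, from 250 before to 50 after the start, it was present in 14 of the 66 promoters listed for 57 member genes (21.2%) and in 32.4% of all 32851 promoters. The repeat of AGTTCA began 32 bases before the start of Cyp26a1. It was present in 8 promoters in all (0.0244%), of which that of Cyp26a1 was the only one of a member. AGGTCA, the core site of many nuclear receptors, was present in 18 member promoters (27.3%) against 16.3% of all. TGTTTAC, bound by Foxa proteins, was present in 7 (10.6%) against 3.65%, and GTTAAT, part of the site of hepatocyte nuclear factor 1, in 6 (9.09%) against 7.1%. Neighboring genes share ancestral sequence, so these promoters are not independent. The promoter of Cyp2b9 carried the same base as that of Cyp2b13 at all 120 positions shown and at 248 of the 250 before the start. A match of letters is a description and does not show binding.

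Fewer P450 genes gave a signal in Hepa1-6 and EHe than in the other cells. Of the 75 members, 29 (38.7%) were above background in Hepa1-6 and 33 (44%) in EHe, against 44 (58.7%) in ES, 45 (60%) at day 14 and 47 (62.7%) at day 7. Among all named genes the percentages were 65.7, 70.3, 76, 76.6 and 79.5 in the same order. The 2 arrays with the fewest members were thus also the 2 with the fewest named genes above background, and EHe had the highest detection limit. Above background on all 5 arrays were 23 members (30.7%), against 59.7% of the named genes, and 9 (12%) were above background on every array but Hepa1-6, against 8.52%. On exactly 1 array, 10 members (13.3%) were above background, against 5.32% of the named genes. Cyp2c55, Cyp2d34, Cyp4a14, Cyp4f14 and Cyp8b1 were above background in ES only, and Cyp3a13 and Cyp4b1 in Hepa1-6 only. Cyp2f2 and Cyp21a1 were so in EHeD7 only, and Cyp4f15 in EHeD14 only.

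The 20 members that were dim throughout (26.7%, against 15.7% of the named genes) included some enzymes known from the adult liver. Among them were 14 of the 40 members of families 1 to 3 outside the fatty acid and vitamin D groups, such as Cyp1a2, which oxidizes aromatic amines, Cyp2e1, which oxidizes ethanol, and Cyp2b10, the classical target of the constitutive androstane receptor. Of the Cyp3a cluster, 3 of 5 members were dim on every array (Cyp3a16, Cyp3a25 and Cyp3a44). Cyp7a1, the rate-limiting enzyme of bile acid synthesis, was dim in Hepa1-6 as elsewhere. Cyp19a1, which makes estrogens, and Cyp11b2, which makes aldosterone, were also dim on all 5 arrays.

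**Figure D1:**
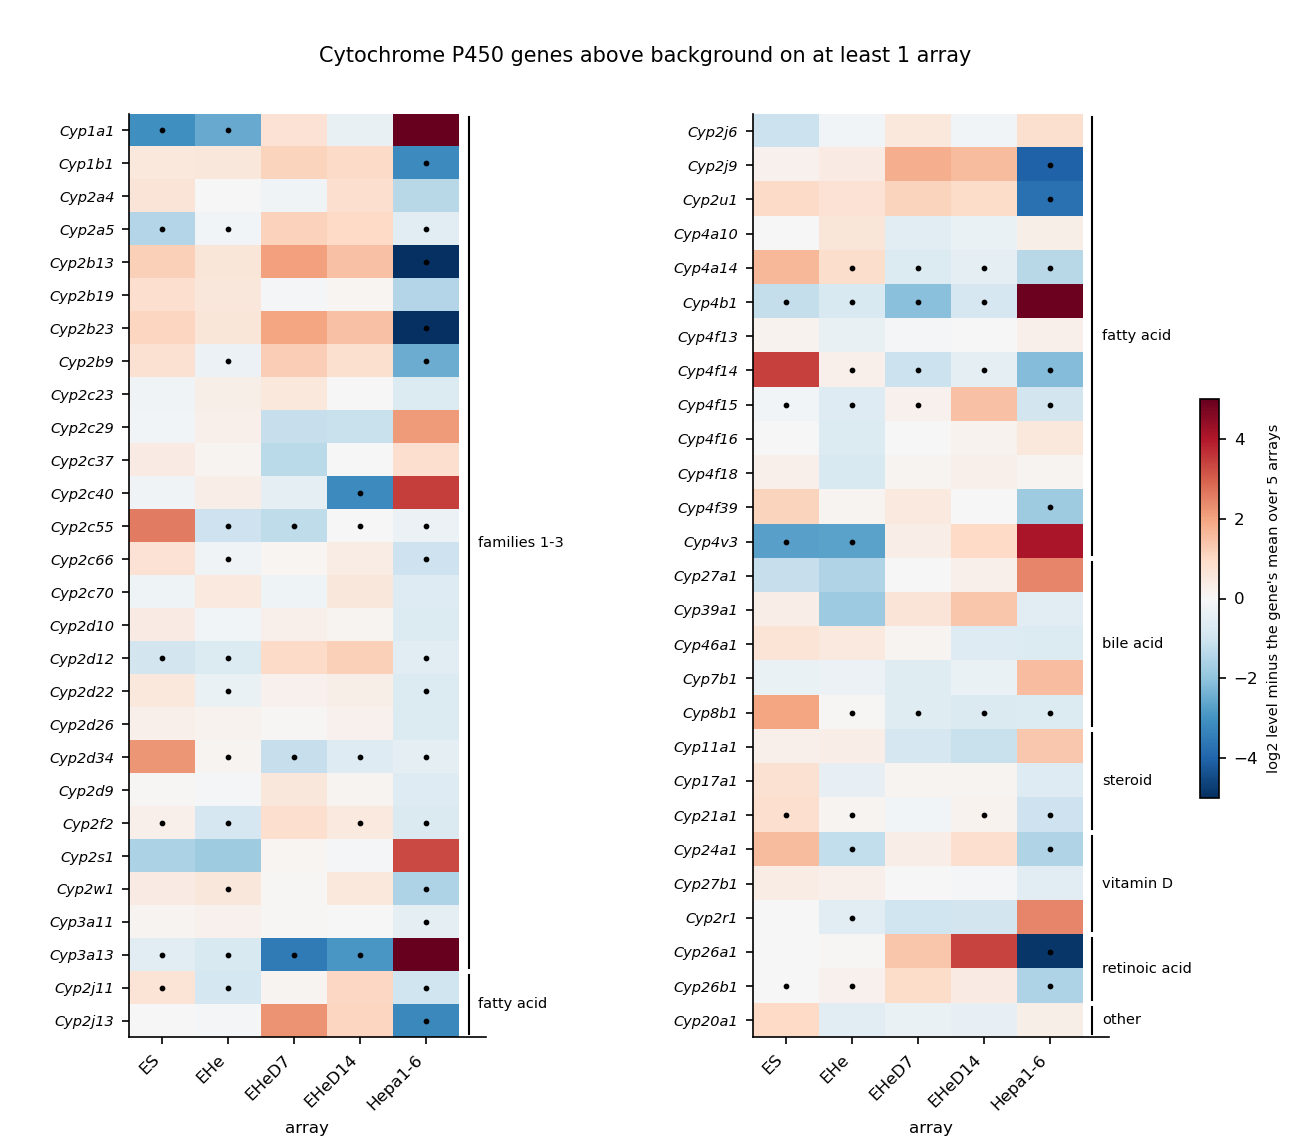
Color gives the log2 level of each of the 55 members above background on at least 1 array (rows, grouped by role) on each array (columns), minus the mean of that gene over the 5 arrays, with colors that end at 5 and -5. A black point marks a dim signal, and the Hepa1-6 column holds both the strongest reds (Cyp1a1, Cyp3a13, Cyp4b1) and the strongest blues (Cyp2b13, Cyp2b23, Cyp26a1).

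The comparison of the parents asked which P450 genes the hepatoma and the stem cells expressed differently. In Hepa1-6, 11 members were past 3-fold higher than in ES (20% of the 55) and 11 were past 3-fold lower (20%). Of all named genes, 13.1% were past 3-fold higher and 20.9% lower. The higher members were Cyp1a1, Cyp2c29, Cyp2c40, Cyp2j6, Cyp2r1, Cyp2s1, Cyp3a13, Cyp4b1, Cyp4v3, Cyp7b1 and Cyp27a1, of which 7 were above background on both arrays. The lower ones were Cyp1b1, Cyp2a4, Cyp2b13, Cyp2b19, Cyp2b23, Cyp2c55, Cyp2j9, Cyp2u1, Cyp4f14, Cyp4f39 and Cyp26a1. Of these only Cyp2a4 and Cyp2b19 were above background on both arrays, so the other 9 folds are bounds. Over the 25 members measured on both arrays the median log2 difference, Hepa1-6 minus ES, was -0.13, against -0.22 over 11344 genes. Centring each array on its median instead of the 75th percentile gave 12 higher and 7 lower members. It also shifted the median over all genes from -0.22 to 0.56, so these counts do not describe P450 genes alone. The normexp background correction took Cyp2c29, Cyp2j6, Cyp2r1 and Cyp7b1 of the higher members under 3-fold, and Cyp1b1, Cyp2a4, Cyp2b19, Cyp2c55, Cyp2j9 and Cyp2u1 of the lower ones.

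Between the undifferentiated hybrid and ES few genes of any kind differed past 3-fold, P450 genes included. No member was past 3-fold higher in EHe than in ES, where 2.36% of all genes were. Cyp2c55, Cyp4f14, Cyp20a1 and Cyp39a1 were past 3-fold lower (7.27% of the 55), against 3.22% of all genes. Over 33 members on both arrays the median log2 difference, EHe minus ES, was -0.18, against -0.11 over 12674 genes. Markers of other cell types differed in the same pair of arrays. Of the 5 endoderm markers, Sox17, Gata6 and Foxa2 were past 3-fold lower in EHe than in ES and none was higher, and their summed level, in units of the 75th percentile, was 3.71 in ES and 0.385 in EHe. Of 6 trophoblast markers, Krt8, Krt18 and Hand1 were past 3-fold lower in EHe and none was higher, with a summed level of 22.3 in ES and 11.1 in EHe. Of 6 fibroblast and mesenchyme markers, Pdgfrb alone was lower and none was higher. Of 4 adrenal and gonad markers, Nr5a1 was past 3-fold higher in EHe (-1.06) than in ES (-2.83) and none was lower. The part of these markers' cell types in the lower P450 levels was not tested.

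Against the hepatoma parent, EHe had 8 members past 3-fold higher (14.5%) and 10 past 3-fold lower (18.2%), where 17.9% of all genes were higher and 12.8% lower. The comparison shares the Hepa1-6 array with that of the parents. The lower members were Cyp1a1, Cyp2c29, Cyp2c40, Cyp2r1, Cyp2s1, Cyp3a13, Cyp4b1, Cyp4v3, Cyp7b1 and Cyp27a1, led by Cyp3a13 (at least 200.9-fold) and Cyp1a1 (at least 53.1-fold). The higher ones were Cyp1b1, Cyp2b13, Cyp2b19, Cyp2b23, Cyp2j9, Cyp2u1, Cyp4f39 and Cyp26a1. Only 1 of the 8 higher and 5 of the 10 lower members were above background on both arrays, so the other folds are bounds. With normexp 2 of the 8 and 8 of the 10 stayed past 3-fold. With median centring the counts became 4 higher and 14 lower, while the median over all genes moved from 0.16 to -0.51.

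The share of P450 genes past 3-fold higher on differentiation was near that of all genes. At day 7, Cyp2j13, Cyp2s1 and Cyp39a1 were higher than in EHe (5.45% of the 55, against 6.7% of all genes) and no member was past 3-fold lower, against 4.1% of all genes. At day 14, Cyp2s1, Cyp26a1, Cyp27a1 and Cyp39a1 were higher (7.27%, against 6.77%) and Cyp2c40 was lower (1.82%, against 4.4%). Both comparisons use the same EHe array. The median log2 difference from EHe was 0.34 at day 7 over 33 members, against -0.12 over all genes, and 0.23 at day 14 over 32 members, against -0.09. Between the 2 days, Cyp26a1 alone was past 3-fold higher at day 14 (1.82%, against 0.499%) and no member was lower (against 0.654%). The median log2 difference, EHeD14 minus EHeD7, was 0.00 over 44 members. With median centring Cyp2c29 and Cyp2c37 came past 3-fold lower at day 7, giving 3 higher and 2 lower members, and at day 14 the counts were 3 and 2. With normexp Cyp2j13 at day 7 and Cyp27a1 and Cyp2c40 at day 14 were under 3-fold.

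Markers of several cell types moved on the same arrays. Of the 5 embryonic stem cell markers, Sox2, Zfp42 and Esrrb were past 3-fold lower than in EHe at each day and none was higher, with a summed level of 109.3 in EHe, 45.4 at day 7 and 36.3 at day 14. Of 6 fibroblast and mesenchyme markers, 4 were past 3-fold higher at each day than in EHe (Col1a1, Col1a2, Thy1 and Pdgfrb), and Vim was past 3-fold lower at day 7. The summed level of the 6 was lower at both days, with 40.4 in EHe, 16.3 at day 7 and 20.5 at day 14. Of 6 trophoblast markers, 4 were higher at each day (Eomes, Krt8, Krt18 and Hand1) and Tfap2c was lower. Their summed level was 11.1 in EHe, 71.8 at day 7 and 101.7 at day 14. Krt8 (5.64) and Krt18 (5.61) made up most of it at day 14, with Eomes next at 0.59. The same sum was 384 in Hepa1-6, so it does not set trophoblast cells apart from the hepatoma. Of 5 endoderm markers, 3 were higher at day 14 (Sox17, Gata6 and Foxa2), and their summed level was 0.385 in EHe, 0.578 at day 7 and 1.42 at day 14. No hepatocyte marker was past 3-fold higher at either day, and Alb and Afp were dim in EHe, EHeD7 and EHeD14. The part of these cell types in the P450 changes was not tested.

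After 14 days the share of members past 3-fold higher in the hybrid than in the hepatoma was near that of all genes. In EHeD14, 10 members were past 3-fold higher than in Hepa1-6 (18.2%, against 17.6% of all genes) and 11 were past 3-fold lower (20%, against 12.2%). The Hepa1-6 array is again shared with the earlier comparisons. The lower group held Cyp1a1, Cyp2c29, Cyp2c40, Cyp2r1, Cyp2s1, Cyp3a13, Cyp4b1, Cyp4v3, Cyp7b1, Cyp11a1 and Cyp27a1. The higher group held Cyp1b1, Cyp2a4, Cyp2b13, Cyp2b23, Cyp2j9, Cyp2j13, Cyp2u1, Cyp4f39, Cyp26a1 and Cyp39a1. Only 2 of the 10 higher and 8 of the 11 lower members were above background on both arrays, so the other folds are bounds. With normexp 5 of the 10 and 10 of the 11 stayed past 3-fold. Median centring changed the counts to 4 higher and 13 lower, while the median over all genes moved from 0.03 to -0.80.

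**Figure D2:**
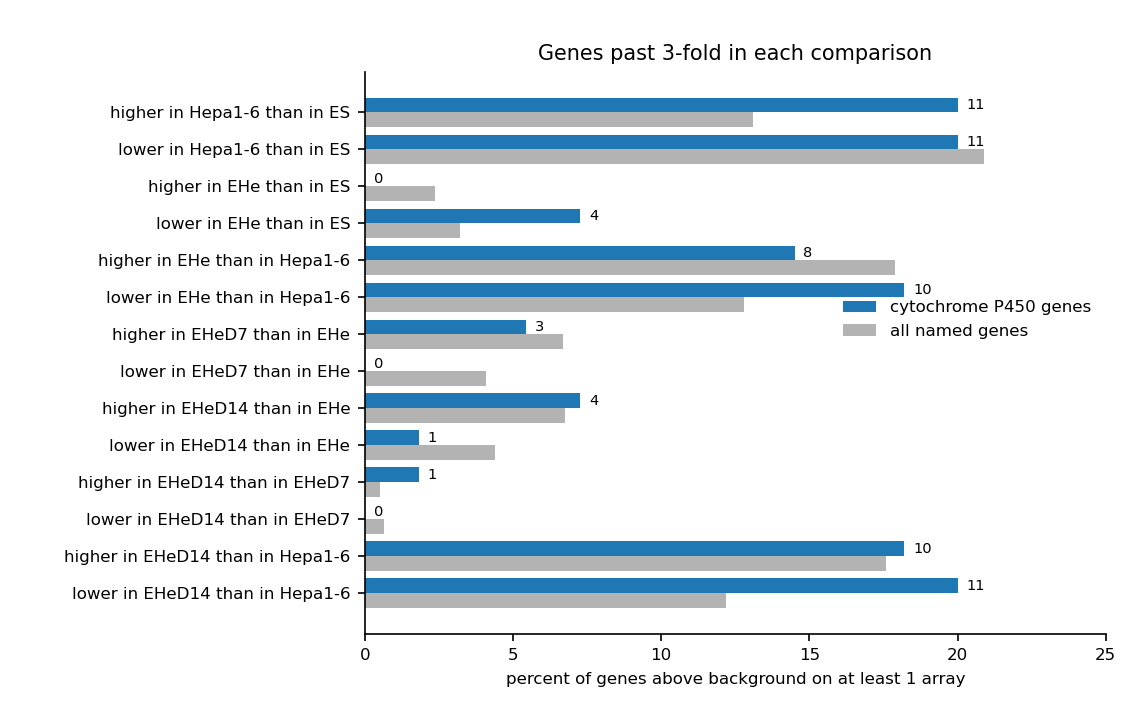
Bars give the percentage of genes past 3-fold in each comparison, for the 55 cytochrome P450 genes (blue, with the number of genes) and for all 15442 named genes above background on at least 1 array (gray). Both bars are longest in the comparisons with Hepa1-6, and no P450 gene was past 3-fold higher in EHe than in ES.

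Among the genes for foreign compounds, the largest contrast between the parents was that of Cyp3a13, a member of the subfamily that oxidizes many drugs and steroids. Its level was 2.81 in Hepa1-6 and was dim at -5.49 in ES, -5.69 in EHe, -8.46 at day 7 and -7.83 at day 14. The fold over ES was at least 300.3, and the hybrid stayed dim at both days. Cyp3a11, the main hepatic member of the subfamily in the mouse, was faint in ES, EHe, EHeD7 and EHeD14, between -4.98 and -4.81, and dim in Hepa1-6.

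Cyp1a1, which oxidizes polycyclic aromatic hydrocarbons and is the classical target of Ahr, was dim in ES (-7.41) and EHe (-6.88). It was above background with -3.62 at day 7, -4.70 at day 14 and 0.89 in Hepa1-6. The level in Hepa1-6 was at least 79.4-fold that in ES. The fold over EHe was only bounded, at least 2.33 at day 7 and at least 1.10 at day 14, because the gene was dim in EHe, and so it was not called at either day. EHeD14 lay 48.1-fold under Hepa1-6.

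Cyp1b1, the close relative that also oxidizes estradiol, ran the opposite way. Its levels were -3.65 in ES, -3.59 in EHe, -3.07 at day 7 and -3.21 at day 14, and the signal in Hepa1-6 was dim at -7.34. None of the first 4 arrays was past 3-fold from another in the comparisons made, and the fold of ES over Hepa1-6 was at least 3.14. Quantile normalization and median centring also took this gene under 3-fold.

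Cyp2s1, an epithelial member that Ahr ligands can induce, was above background on all arrays. It stood at -0.68 in ES, -0.86 in EHe, 1.00 at day 7, 0.86 at day 14 and 4.21 in Hepa1-6. Hepa1-6 was 29.7-fold over ES. The rise over EHe was 3.63-fold at day 7 and 3.29-fold at day 14, and the latter was under 3-fold with median centring. On the log2 scale these rises covered 36.7% and 33.9% of the distance from EHe to Hepa1-6.

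Of the Cyp2b genes, 3 were above background in ES and dim in the hepatoma. Cyp2b13, a gene that female livers express more than male livers, was at -1.08 in ES, -1.66 in EHe, -0.21 at day 7 and -0.80 at day 14, and was dim at -7.56 in Hepa1-6. Cyp2b23 followed at -1.10, -1.56, -0.18 and -0.71 on the same 4 arrays and was dim at -7.26 in Hepa1-6. Whether the probes of these neighboring genes bind the same transcript was not tested. ES was at least 18.7-fold over Hepa1-6 for Cyp2b13 and at least 18.5-fold for Cyp2b23. A second Cyp2b13 probe read -4.71 in ES and was dim in Hepa1-6, so its fold was only bounded, with a bound under 3-fold.

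Cyp2b19, the epoxygenase of keratinocytes, differed less, with -2.49 in ES, -2.79 in EHe, -3.39 at day 7, -3.26 at day 14 and -4.81 in Hepa1-6, a 4.97-fold difference between the parents. Cyp2b9, whose promoter has the bases printed for Cyp2b13, was above background at -4.30 in ES, -3.82 at day 7 and -4.24 at day 14 and dim in EHe and Hepa1-6. A second Cyp2b9 probe was dim on all 5 arrays. Cyp2a4, a steroid hydroxylase, was 4.13-fold lower in Hepa1-6 (-5.10) than in ES (-3.05). It stood at -3.68 in EHe, -3.88 at day 7 and -2.86 at day 14. Its other probes were dim in both ES and Hepa1-6 and gave no fold between them. All 12 genes of the Cyp2a, Cyp2b, Cyp2f2, Cyp2g1 and Cyp2s1 group lie on 1 chromosome, and 8 of them were above background on at least 1 array, with 3 of the 12 in Hepa1-6.

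The Cyp2c genes, which oxidize drugs and arachidonic acid, did not share 1 pattern. Cyp2c40 had levels of -4.20 in ES, -3.69 in EHe, -4.47 at day 7 and -0.57 in Hepa1-6 and was dim with -7.21 at day 14. Hepa1-6 was thus 12.3-fold over ES for this gene, and its level was at least 3.64-fold lower at day 14 than in EHe. Its other probe was dim in both EHe (-5.25) and EHeD14 (-7.76), so it gave no fold for the latter comparison. Cyp2c29 had -4.15 in ES, -3.76 in EHe, -5.17 at day 7, -5.16 at day 14 and -1.90 in Hepa1-6, 4.75-fold over ES. Both genes were lower in EHeD14 than in EHe, though Cyp2c29 was not past 3-fold there. Cyp2c55, known from the colon, was the reverse case. Its level was -2.59 in ES and dim elsewhere, at -6.23 in EHe, -6.44 at day 7, -5.18 at day 14 and -5.48 in Hepa1-6, so that ES was at least 4.77-fold over EHe and at least 6.59-fold over Hepa1-6. Cyp2c23 and Cyp2c70 were above background throughout, the former between -3.09 and -1.90 and the latter between -3.95 and -2.74.

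In the Cyp2d group, which oxidizes many drugs, Cyp2d9, Cyp2d10 and Cyp2d26 were above background on all arrays and were lowest in Hepa1-6, at -2.14, -4.70 and -4.19. In ES they stood at -1.46, -3.61 and -3.29. None of the 3 was past 3-fold in any of the 7 comparisons, although a second Cyp2d10 probe was past 3-fold lower in Hepa1-6 than in both ES and EHe. Cyp2d12 was above background after differentiation only, with -4.29 at day 7 and -4.04 at day 14.

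**Figure D3:**
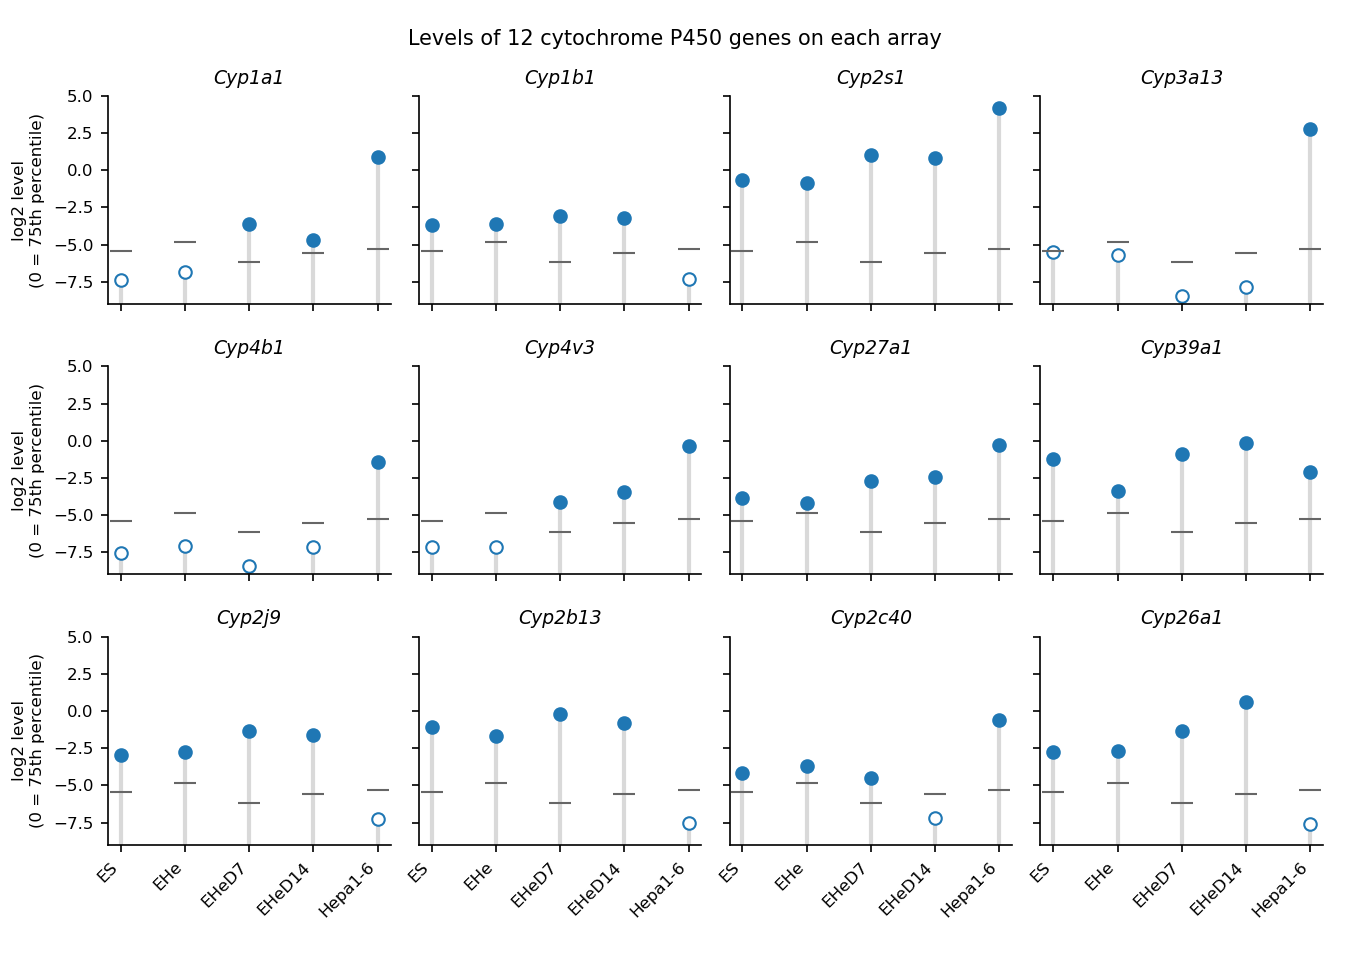
Each panel gives the log2 level of 1 member on each of the 5 arrays (1 array per condition, no error bars). Filled points are above background, open points are dim, and short gray lines are the detection limits. Cyp1a1, Cyp2s1, Cyp3a13, Cyp4b1, Cyp4v3, Cyp27a1 and Cyp2c40 peak in Hepa1-6, while Cyp26a1 peaks in EHeD14 and is dim in Hepa1-6.

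Members that act on fatty acids and eicosanoids numbered 18, of which 15 were above background on at least 1 array. In Hepa1-6, 3 of the 15 were past 3-fold higher than in ES and 4 were lower, where 13.1% of all genes were higher and 20.9% lower. Cyp4v3, the counterpart of a human gene mutated in a retinal disease and a hydroxylase of fatty acid ends, was dim in ES (-7.17) and EHe (-7.15), with -4.15 at day 7, -3.45 at day 14 and -0.38 in Hepa1-6. It was at least 32.9-fold higher in Hepa1-6 than in ES. The bounded fold over EHe was at least 1.62 at day 7 and at least 2.62 at day 14. Cyp4b1, known from the lung, stood at -1.45 in Hepa1-6 and was dim at -7.55 in ES, -7.10 in EHe, -8.45 at day 7 and -7.17 at day 14, a difference between the parents of at least 15.7-fold. Cyp2j6, an epoxygenase of arachidonic acid, was 3.73-fold higher in Hepa1-6 (-2.78) than in ES (-4.68), with -3.71 in EHe, -3.07 at day 7 and -3.72 at day 14. Its other probe was dim on all 5 arrays, and with the mean of its probes it was under 3-fold.

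Other epoxygenases of the Cyp2j cluster were dim in the hepatoma. Cyp2j9 was at -2.96 in ES, -2.78 in EHe, -1.36 at day 7 and -1.59 at day 14 and at -7.25, dim, in Hepa1-6, at least 5.07-fold under ES. Its fold over EHe was 2.68 at day 7 and 2.29 at day 14, under the limit at both. Cyp2j13 was at -4.35 in ES, -4.46 in EHe, -2.11 at day 7 and -3.29 at day 14 and dim at -7.60 in Hepa1-6. It rose 5.10-fold at day 7. The 2 other probes of the gene were dim in EHe. At day 7 they read under the EHe detection limit, so they gave no fold. Cyp2u1, which hydroxylates arachidonic acid, hardly moved among the other cells, with -2.86 in ES, -3.12 in EHe, -2.69 at day 7 and -2.89 at day 14, and was dim at -7.56 in Hepa1-6. ES was at least 5.43-fold over Hepa1-6.

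The Cyp4f genes, which inactivate leukotrienes and hydroxylate long fatty acids, did not share 1 pattern either. Cyp4f14 was at -1.72 in ES and dim in EHe (-4.89), EHeD7 (-6.22), EHeD14 (-5.59) and Hepa1-6 (-7.34). It was at least 8.67-fold lower in EHe than in ES. Cyp4f39, which acts on the very long fatty acids of skin lipids, was at -2.45 in ES, -3.40 in EHe, -3.06 at day 7 and -3.51 at day 14 and dim at -5.32 in Hepa1-6, at least 7.22-fold under ES. Cyp4f13 stayed between -0.33 and 0.31 on all arrays and Cyp4f16 between -0.23 and 1.00, although a second Cyp4f16 probe was past 3-fold lower in EHe (-3.56) than in Hepa1-6 (-1.94). Cyp4a10, a target of the fatty acid receptor Ppara, stayed between -3.81 and -2.60, while its other probes were dim on all 5 arrays.

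Of the 6 bile acid and cholesterol genes, 5 were above background on at least 1 array. Cyp27a1 and Cyp39a1 were past 3-fold higher at day 14 than in EHe, where 6.77% of all genes were. With normexp Cyp27a1 was under 3-fold, and so few genes cannot be set against that share. Cyp39a1, which hydroxylates an oxysterol on its way to bile acids, was at -1.23 in ES, -3.39 in EHe, -0.91 at day 7, -0.18 at day 14 and -2.12 in Hepa1-6. EHe was the low point, 4.48-fold under ES, and the level was 5.58-fold over EHe at day 7 and 9.25-fold at day 14. At day 14 it was also 3.83-fold over the hepatoma. The second probe of Cyp39a1 read -3.17 in ES, -3.55 in EHe, -0.99 at day 7, -0.51 at day 14 and -2.30 in Hepa1-6. It therefore gave the rise at both days but not the difference between EHe and ES. Cyp27a1, the mitochondrial enzyme that hydroxylates the side chain of cholesterol, stood at -3.83 in ES, -4.21 in EHe, -2.73 at day 7, -2.45 at day 14 and -0.27 in Hepa1-6. Hepa1-6 was 11.8-fold over ES, and EHeD14 was 3.37-fold over EHe, or 44.5% of the log2 distance from EHe to Hepa1-6.

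Cyp7b1, which acts on oxysterols and steroids, was even outside the hepatoma, with -1.77 in ES, -1.72 in EHe, -2.05 at day 7 and -1.77 at day 14. Hepa1-6 (0.11) was 3.68-fold over ES. Cyp46a1, the cholesterol hydroxylase of the brain, was highest in ES, with -1.87 in ES, -2.08 in EHe, -2.42 at day 7, -3.22 at day 14 and -3.24 in Hepa1-6, and was not past 3-fold in any of the 7 comparisons. Cyp8b1, which sets the balance between the main bile acids, was faint in ES (-4.88) and dim at -6.80 in EHe, -7.44 at day 7, -7.56 at day 14 and -7.53 in Hepa1-6. Of 10 partner genes of steroid and bile acid synthesis, 8 were above background on at least 1 array. Among these Hsd3b7, an enzyme of bile acid synthesis, passed 3-fold upward in Hepa1-6 (3.29) against ES (0.85), Hsd17b1, an enzyme of estrogen synthesis, passed it downward (-4.69 against -2.60), and none was past 3-fold in EHeD7 or EHeD14 against EHe.

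Of the 5 steroid hormone genes, 3 were above background on at least 1 array. Cyp11a1, which cleaves the side chain of cholesterol in the first step, was at -3.23 in ES, -3.14 in EHe, -4.34 at day 7, -4.59 at day 14 and -2.15 in Hepa1-6. Hepa1-6 and ES differed by 2.12-fold, whereas EHeD14 was 5.44-fold under Hepa1-6. A second probe of Cyp11a1 was past 3-fold lower in EHeD14 than in EHe, where the probe used here gave 2.74-fold. Cyp17a1, needed for cortisol precursors and androgens, was at -0.61 in ES, -1.77 in EHe, -1.25 in both EHeD7 and EHeD14 and -2.03 in Hepa1-6, under 3-fold throughout. Cyp21a1, an adrenal enzyme, was above background in EHeD7 only (-5.86), with dim signals of -4.92 in ES, -5.60 in EHe, -5.56 at day 14 and -6.78 in Hepa1-6. Because the dim readings in 3 of these arrays were higher on this scale than the detected one, no order among them can be read. Among 4 adrenal and gonad markers, none was past 3-fold in EHeD7 or EHeD14 against EHe.

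Of the 3 vitamin D genes, Cyp2r1 was the only one past 3-fold in any of the 7 comparisons. Cyp2r1, which makes the circulating form, was at -4.33 in ES, -5.36 at day 7, -5.27 at day 14 and -1.93 in Hepa1-6 and dim at -4.91 in EHe. Hepa1-6 was 5.26-fold over ES. Cyp27b1, which makes the active hormone, varied little, with -3.19 in ES, -3.30 in EHe, -3.56 at day 7, -3.62 at day 14 and -4.07 in Hepa1-6. Cyp24a1, which inactivates the hormone and is induced by the vitamin D receptor, was at -4.23 in ES, -5.46 at day 7 and -4.96 at day 14 and dim at -7.03 in EHe and -7.29 in Hepa1-6. The receptor gene Vdr was above background on all 5 arrays, between -5.57 and -3.67.

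Among the members above background in both EHe and EHeD14, the largest fold over EHe at day 14 was that of a gene for retinoic acid clearance, close to that of Cyp39a1. Cyp26a1, the inducible enzyme that oxidizes retinoic acid, was at -2.72 in ES, -2.69 in EHe, -1.37 at day 7 and 0.62 at day 14 and dim at -7.60 in Hepa1-6. EHe was over ES by 0.03, EHeD7 was 2.49-fold over EHe, and EHeD14 was 9.88-fold over EHe and 3.98-fold over EHeD7. The differentiated hybrid thus moved away from the hepatoma, to at least 60.7-fold over it. Cyp26b1, the related enzyme known from the limb and gonad, was called above background in EHeD7 and EHeD14 only, with -4.86 at day 7 and -5.36 at day 14. It was dim at -5.79 in ES, -5.58 in EHe and -7.33 in Hepa1-6. Both detected readings lay under the detection limit of EHe (-4.84), so no difference from EHe can be read.

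Of 10 retinoid partner genes, 9 were above background on at least 1 array. Against EHe, Dhrs3, a retinal reductase, was past 3-fold higher at both days and Rarb, a receptor that retinoic acid itself induces, was lower at both. Dhrs3 was at 0.29 in ES, -4.23 in EHe, -0.71 at day 7, -0.30 at day 14 and 1.99 in Hepa1-6. Rarb was at -3.15 in ES and -2.93 in EHe and dim in EHeD7, EHeD14 and Hepa1-6. Cyp26a1 and Rarb, both known targets of retinoic acid, thus moved in opposite directions on differentiation. In Hepa1-6, where Cyp26a1 was dim, Aldh1a1, which makes retinoic acid, stood at 5.98 against -3.34 in ES, whereas Aldh1a2, which also makes it, stood at -4.53 against -1.99.

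The receptors that control P450 genes were followed in a list of 24 genes, of which 23 were on the array. In Hepa1-6, 5 were past 3-fold higher than in ES (Ahr, Nr1h3, Nr1h4, Foxa2 and Cebpb) and 3 were lower (Nr5a2, Rarb and Rarg). Ahr was at -2.02 in ES, -1.50 in EHe, 0.24 at day 7, 0.28 at day 14 and 2.10 in Hepa1-6. It was past 3-fold higher than in EHe at both days, as were Rxrg (7.14-fold at day 7 and 4.24-fold at day 14) and Nr1h3. In all, 3 of the list were past 3-fold higher and 2 lower at day 7, against 6.7% and 4.1% of all genes. At day 14, 4 were higher, Foxa2 among them, and 2 lower, against 6.77% and 4.4%. The lower ones at both days were Nr5a2 and Rarb. Ahrr, the repressor of Ahr and itself a target, was at -3.84 in ES, -3.29 in EHe, -2.10 at day 7, -2.03 at day 14 and -3.79 in Hepa1-6. Of 5 Ahr targets outside the P450 genes on the array, Ahrr among them, 4 were above background on at least 1 array. Nqo1 was past 3-fold lower at both days than in EHe (2.71 in EHe, 0.37 at day 7 and 0.79 at day 14) and lowest in Hepa1-6 (-2.72).

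The receptors of the liver for foreign compounds were near background. Nr1i2 (the pregnane X receptor) was above background in EHeD7 only, at -5.75, and Nr1i3 (the constitutive androstane receptor) in Hepa1-6 only, at -3.96. Foxa1 was above background in Hepa1-6 only, at -4.82. Hnf4a, a master regulator of hepatocyte genes, was at -3.72 in ES, -4.28 at day 7, -4.37 at day 14 and -2.69 in Hepa1-6 and dim in EHe. Foxa2 stood apart, at 3.38 in Hepa1-6 against -2.85 in ES and -2.43 at day 14. It was dim at -6.93 in EHe. Nr5a2 fell from 1.82 in EHe to -2.15 at day 7 and was dim in EHeD14.

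The enzymes that pass electrons and heme to P450 proteins were present throughout. All 10 genes of this list were above background on all 5 arrays. Por, the reductase of the endoplasmic reticulum, was at 2.81 in ES, 2.77 in EHe, 2.06 at day 7, 1.98 at day 14 and 3.48 in Hepa1-6. Fech, the last enzyme of heme synthesis, passed 3-fold upward in Hepa1-6 (1.36) against ES (-0.24), and this was the only call of the list in the 7 comparisons.

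The change on differentiation was set beside the difference between the parents, since these use different arrays. Over the 23 members above background on ES, EHe, EHeD14 and Hepa1-6, the Pearson r between the Hepa1-6 minus ES and the EHeD14 minus EHe log2 differences was 0.15, and it was 0.31 over 10917 genes. At day 7 it was 0.12 over 24 members and 0.29 over 10947 genes. These are descriptions across genes, which share the 4 arrays and are not independent replicates. At day 14, 4 of the 23 members were higher in both differences and 4 lower in both. Of the others, 6 were higher in Hepa1-6 but lower after differentiation, and 9 were the reverse. Cyp2s1 and Cyp27a1 were past 3-fold higher in both. Cyp2c40 was past 3-fold higher in Hepa1-6 but past 3-fold lower at day 14, and Cyp26a1 was the converse, with dim signals at the limit in both cases.

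**Figure D4:**
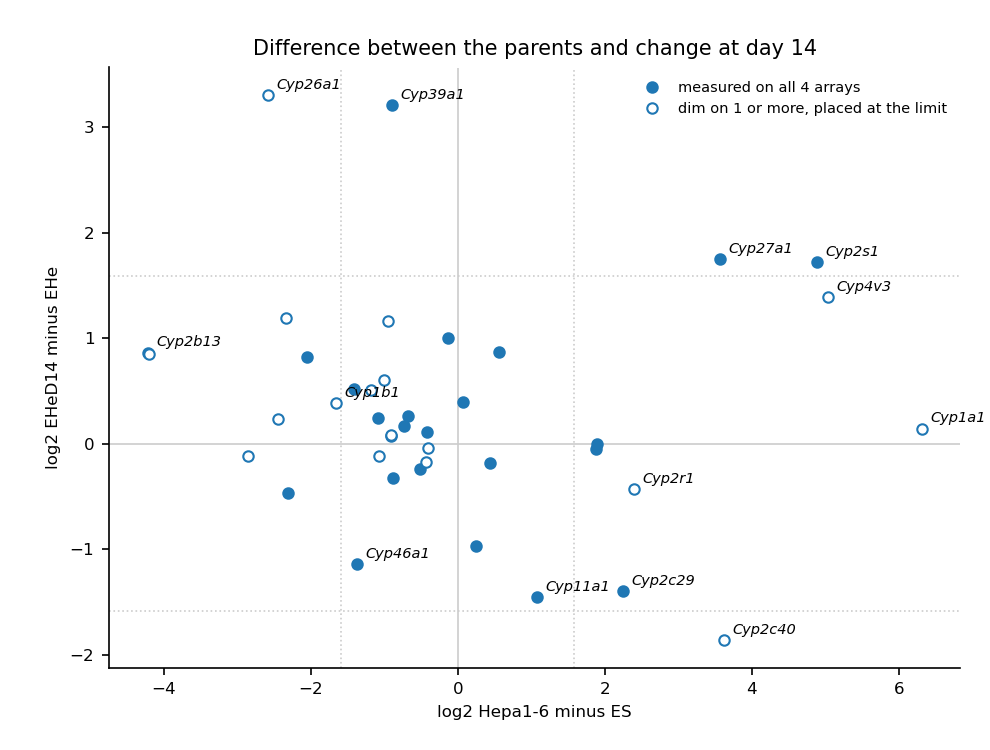
The horizontal axis gives the log2 difference Hepa1-6 minus ES and the vertical axis the log2 difference EHeD14 minus EHe for each member. Filled points are the 23 members above background on all 4 arrays, open points are 18 members with a dim signal placed at the detection limit, and dotted lines mark 3-fold. Cyp27a1 and Cyp2s1 lie past 3-fold upward on both axes, Cyp26a1 lies at the upper left and Cyp2c40 at the lower right.

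Cyp20a1, a member of unknown function, completed the set. It was at -0.29 in ES, -1.88 in EHe, -1.63 at day 7, -1.71 at day 14 and -1.02 in Hepa1-6, and thus 3.01-fold lower in EHe than in ES, just past the limit. The normexp correction, median centring and a percentile over probes above background on all arrays each took it under 3-fold. Several probes above background existed for 11 members, and of 77 pairs of such a gene and a comparison 13 differed in call between probes, none with opposite directions. A probe that gave no fold, as when dim on both arrays, counted here as not called. Some of the 13 are therefore missing values and not disagreements.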

How the data were processed

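The authors labelled total RNA of each culture and hybridized it to 1 Agilent mouse oligo array per condition, 5 arrays in all. By the labels the dye was Cy3 and differentiation took place in a monolayer, whereas the methods name Cy5 and embryoid bodies, and this was not resolved. The deposited tables came from Agilent Feature Extraction 10.7.3.1 and hold, per spot, intensity values that the software had background-subtracted and detrended, without normalization between arrays, and its calls of signals well above background. The deposited series table held the same intensity values (largest relative difference 0). From these, control and outlier spots (73 to 174 per array) were left out, spots of a probe were averaged on the log2 scale and the 75th percentile of each array was subtracted. A probe counted as above background when at least 50% of its spots were called so.

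Of 41174 probes, 26880 were named through RefSeq accessions and 14294 were not used. Each gene was represented by the probe above background on the most arrays, then with the highest mean. With 1 array per condition no test was made, and genes past 3-fold, the limit of the study, were counted with dim signals at the detection limit. The counting step was tested on simulated data. These held genes that started above background, changes well past 3-fold and only the error between spots. They did not test changes near 3-fold or the spread between cultures. Every member above background could be named, and values on each array were given for members past 3-fold between the parents, in EHe against ES or in differentiated hybrids against EHe, and for the bile acid, steroid, vitamin D and retinoic acid genes. The members and lists were chosen with earlier results of these data known. Alternatives were the normexp correction (offset 50) and quantile normalization of limma 3.58.1 in R 4.3.3, other percentiles and centrings, 2-fold as the limit, dim signals as measured, only genes above background on all 5 arrays, the mean of all probes of a gene, and symbols with 2 letters. Other steps used Python 3.11.15, pandas 2.3.3 and numpy 2.4.6. The number of arrays limits the precision of every value.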

Additional observations from a re-analysis of the deposited data

How the results depend on the processing

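The recomputed counts were of members past 3-fold (past 2-fold where that was the limit) and of members above background. Of these 152 counts, 109 stayed within 1.5 times the value reported and 43 moved further. None of the named genes reversed direction (274 values stayed, 270 moved by more than the limit set). No paired analysis was possible because there was only 1 array of every condition, and for the same reason no replicate could be left out. The series table gave the same counts as the scanner tables. Median centring shifted the median over all genes of Hepa1-6 minus ES from -0.22 to 0.56, a shift of 0.78, and quantile normalization shifted it by 0.12. The counts below read in the same order as their comparisons, and the cause was not tested unless given. The share of all genes past the limit is not given beside them. They show how the counts depend on processing and do not set P450 genes apart from other genes.

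With dim signals as measured, 19 members were lower in Hepa1-6 than ES, 7 lower in EHe than ES, 7 higher in EHeD7 and 10 higher in EHeD14 than EHe, 1 lower in EHeD14 than EHeD7 and 17 higher in EHeD14 than Hepa1-6; here low signals were no longer raised to the limit. With normexp, 7 were higher and 5 lower in Hepa1-6 than ES, 2 lower in EHe than ES, 2 higher in EHe than Hepa1-6, 0 lower in EHeD14 than EHe and 5 higher in EHeD14 than Hepa1-6. Quantile normalization gave 6 lower in Hepa1-6 than ES, 4 higher in EHe than Hepa1-6, 2 lower in EHeD7 and 3 lower in EHeD14 than EHe and 5 higher in EHeD14 than Hepa1-6. Median centring gave 7, 4, 2, 2 and 4 in these 5 comparisons. The 75th percentile over probes above background on all arrays gave 5 higher in EHeD7 than EHe. Only genes above background on all 5 arrays left fewer members to count, with 5 higher and 2 lower in Hepa1-6 than ES, 2 lower in EHe than ES, 1 higher and 4 lower in EHe than Hepa1-6, 0 lower in EHeD14 than EHe, 0 higher in EHeD14 than EHeD7, and 2 higher and 5 lower in EHeD14 than Hepa1-6. At 2-fold, 17 were lower in Hepa1-6 than ES, 10 higher and 4 lower in EHeD7 than EHe, 7 higher and 4 lower in EHeD14 than EHe, and 4 higher and 3 lower in EHeD14 than EHeD7. The mean of all probes of a gene gave 1 lower in EHeD7 than EHe. Symbols with 2 letters, which added Cyp2ab1, gave 1 higher in EHe than ES, 1 lower in EHeD7 and 2 lower in EHeD14 than EHe.

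Signal over background limits most of these counts: 9 of the 11 members lower in Hepa1-6 than in ES, and 4 of the 11 higher there, were dim on 1 array, so their folds are bounds.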
